A study of Arabidopsis thaliana with 4 samples.

Results

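The xyloglucan endotransglucosylase/hydrolase (XTH) family of Arabidopsis thaliana was followed in seedlings of a mutant of phytochrome B and in their wild type. Members were taken by locus code, from XTH1 to XTH33, and all 33 were found among the 27416 gene models of the deposited tables, with 1 model each. The phyB group is a phyB mutant and the WT group is the wild type, both in the Col-0 accession, and the labels name no allele of the mutant. Whole seedlings of both groups were grown on medium with 1% sucrose for 4.5 days after 4 days in the cold. They received 12 h of white light, followed by red light (60 μmol per square metre and second) for 4 days. The labels list 2 samples per genotype, but each genotype has 1 column of reads and 1 of RPKM (reads scaled by coding length and by the total of the column). No value therefore has a replicate, no test between genotypes was possible, and every difference below is a difference between these 2 columns. A word for a repeated analysis stands in the titles of both WT samples and of no mutant sample, so genotype and any such batch cannot be told apart.

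Xyloglucan is the hemicellulose that coats and tethers cellulose in the primary walls of flowering plants other than grasses. XTH enzymes cut a xyloglucan chain and either join the new end to another chain, which is transglucosylation, or release it to water, which is hydrolysis. Walls are remodelled in this way as cells expand. Phytochrome B senses red light, in which its active form restrains hypocotyl and petiole elongation, and several XTH genes are known to be induced by shade, brassinosteroid, auxin or touch. By sequence the family is divided into group I (XTH1 to XTH11), group II (XTH12 to XTH26), group III-A (XTH31 and XTH32), whose enzymes are known as hydrolases, and group III-B (XTH27 to XTH30 and XTH33).

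The columns held 33201394 reads in phyB and 33521717 reads in WT. PHYB itself (AT2G18790) was at 14.1 RPKM in phyB and 36.3 RPKM in WT, a log2 ratio of -1.36 (95% counting interval -1.45 to -1.28). The interval is exact, comes from the reads of both columns and covers counting error only, here and below. The tissue label was compared with markers of leaf and root. The 5 leaf markers summed to 29386 RPKM in phyB and 27918 RPKM in WT, the 5 markers of root endodermis and stele to 395 RPKM in phyB and 396 RPKM in WT, and the 6 root-hair markers to 42.2 RPKM in phyB and 49.8 RPKM in WT. The sums hide single markers: 3 of the 5 leaf markers had log2 ratios below 0, and of the endodermis and stele markers CASP1 was at 0.09 while CASP2 at -0.11, MYB36 at -0.18 and SCR at -0.34 were below 0 beyond counting error. All of these markers were detected, so both columns held shoot and root transcripts. In whole seedlings, fewer cells of a type and less RNA per cell cannot be told apart.

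The coding sequence around the catalytic site shows how closely the members are related and where they part. Most members share a short stretch that holds the catalytic glutamate codons. A pattern of 7 codons was searched in frame on the coding strand only, with GA as the opening bases of codons 1, 2, 4 and 6, AT of codon 3 and TT of codons 5 and 7. It was present in 22 of 27444 nuclear coding sequences of the RefSeq annotation of TAIR10.1, and all 22 were XTH members. A looser pattern, which includes the first and asks only for T as the middle base of codons 3, 5 and 7, was present in 134 coding sequences, of which 31 were members and 103 were not. XTH9 and XTH11 matched neither. In the lines below the codons of the pattern are in capitals, with the codon before and the codons after it in lower case, and each stretch lies within 1 coding exon.
XTH4, chr2:2764490-2764522, plus strand: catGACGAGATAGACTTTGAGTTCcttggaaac
XTH24, chr4:14820039-14820071, minus strand: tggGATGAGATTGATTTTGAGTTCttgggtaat
XTH15, chr4:8137779-8137811, minus strand: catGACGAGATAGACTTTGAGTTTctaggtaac
XTH7, chr4:17776851-17776883, minus strand: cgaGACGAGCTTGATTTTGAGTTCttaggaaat
XTH6, chr5:26299613-26299645, plus strand: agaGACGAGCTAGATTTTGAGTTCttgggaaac
XTH31, chr3:16447879-16447911, minus strand: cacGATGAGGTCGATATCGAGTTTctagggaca
XTH32, chr2:15474070-15474102, minus strand: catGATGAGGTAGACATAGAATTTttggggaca
XTH30, chr1:11576257-11576289, plus strand: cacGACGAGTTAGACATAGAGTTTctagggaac
These members were chosen because the results turn on them. XTH4, XTH24 and XTH15 carry the common form, in which codon 3 of the pattern starts with AT and codon 5 with TT. XTH6 and XTH7 were the only members with CT in codon 3 and TT in codon 5. XTH31 and XTH32 share GT in codon 3 and AT in codon 5, and codon 5 also starts with AT in XTH29, XTH30 and XTH33.

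Most of the family was expressed in red-light seedlings, with a median level above that of all genes. A mean over both columns of at least 1 RPKM was reached by 28 of the 33 members, where 19296 of all 27416 gene models reached it. These 28 are the members described by ratio below. Their median level was 75.4 RPKM in phyB and 57.5 RPKM in WT, against 14.6 RPKM in phyB and 14.7 RPKM in WT over all 19296 genes that reached the same mean. Levels of at least 100 RPKM were seen for 9 members in phyB and 10 members in WT. Of all 27416 gene models, 1988 in phyB and 1862 in WT reached that level. Together the 33 members took 0.284% of the reads in phyB (exact 95% interval 0.282 to 0.286%) and 0.282% in WT (0.281 to 0.284%).

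The remaining 5 members were at or near 0. XTH1 and XTH29 had 0 reads in both columns, which allows up to 3 reads, or 0.103 RPKM for XTH1 in phyB and 0.102 RPKM in WT. XTH29 was limited in the same way to 0.0841 RPKM in phyB and 0.0833 RPKM in WT. XTH3, whose enzyme is known to act on cellulose as well as xyloglucan, had 0 reads in phyB and 1 read in WT. XTH25 had 2 reads in phyB and 1 read in WT, and no ratio is given for these 4 members. XTH2 had 1 read in phyB and 5 reads in WT, and its interval, from -7.87 to 0.85 on the log2 scale, spans equal levels.

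**Figure D1:**
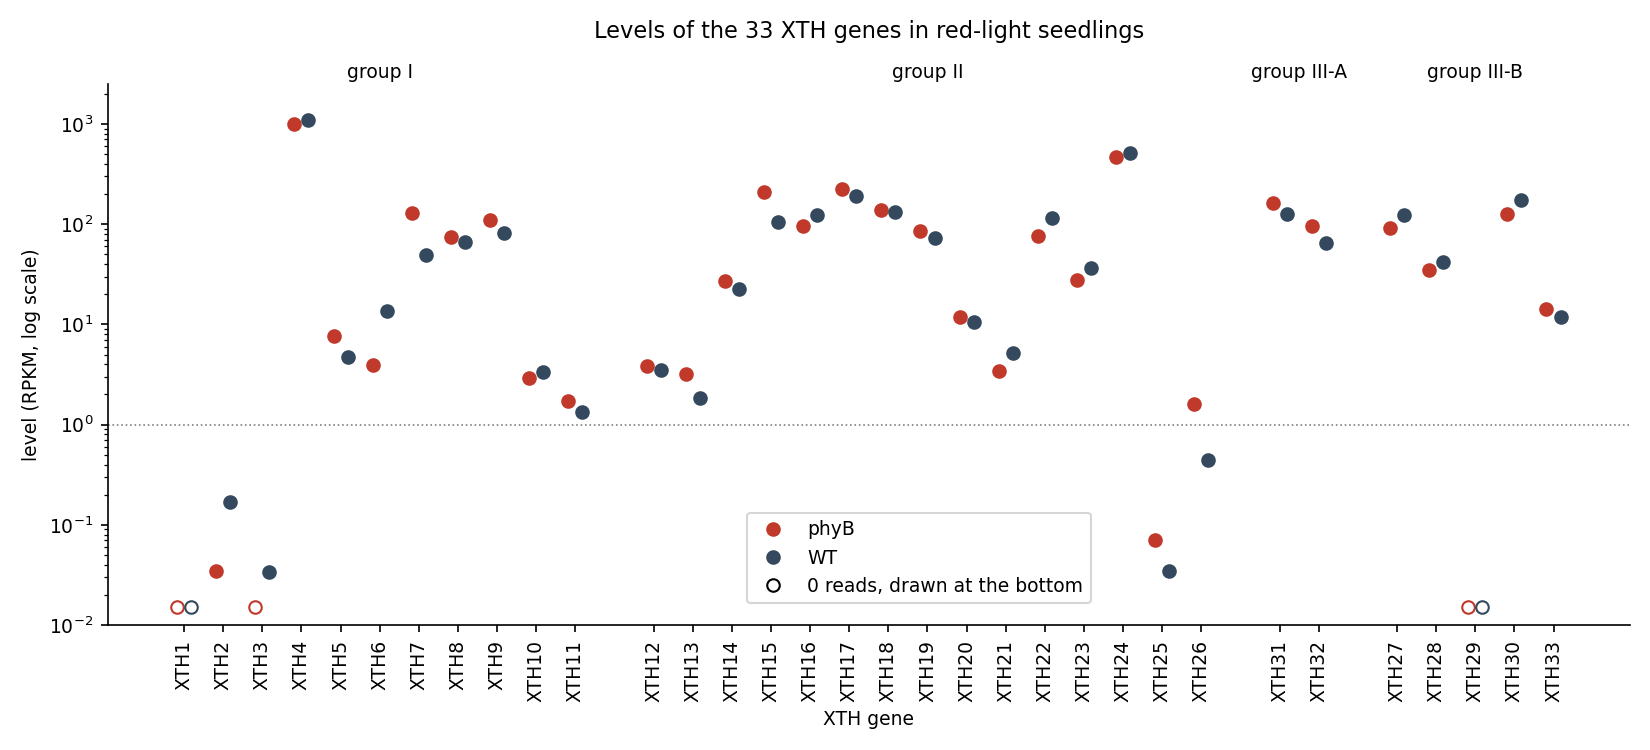
Level of each of the 33 XTH genes in RPKM on a log axis, phyB in red and WT in dark blue, with the 1 value per genotype and genes arranged by sequence group. Open circles at the bottom are genes with 0 reads and the dotted line is at 1 RPKM. XTH4 is the highest and XTH24 the next in both genotypes, and the separation between genotypes is widest for XTH6, XTH7 and XTH26 among genes above the line in either genotype.

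XTH4 was the most abundant member in both genotypes. It encodes a transglucosylase known from stems and their secondary walls, and it stood at 992 RPKM in phyB and 1102 RPKM in WT, which was 30.7% of the summed RPKM of the family in phyB and 34.4% in WT. XTH24, first known as the meristem gene MERI5, followed at 474 RPKM in phyB and 510 RPKM in WT. XTH17, of a set of root-elongation genes, was the next at 225 RPKM in phyB and 192 RPKM in WT. The order of these leading members was the same in both columns, and each stood above the next beyond counting error, XTH4 by 2.09-fold over XTH24 in phyB and 2.16-fold in WT.

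Below them the order differed. XTH15 was at place 4 in phyB and 10 in WT, and XTH7 at place 7 in phyB and 15 in WT. XTH30 was at place 8 in phyB and 4 in WT, and XTH22 at place 14 in phyB and 9 in WT. Not all neighbouring places can be told apart: in phyB 11 of 29 and in WT 11 of 30 neighbours in the order had intervals that include equal levels. Among these were XTH7 and XTH30 in phyB and XTH31, XTH16 and XTH27 in WT.

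Between genotypes the summed RPKM of the family was close to equal, while single members differed in both directions. The sum was 3227 in phyB and 3199 in WT, a log2 ratio of the sums of 0.01. Without XTH4 that ratio was 0.09, and over all gene models it was 0.11. Higher values in 18 members added up to 348 RPKM, and lower values in 13 members to -319 RPKM, as phyB minus WT. Of the 28 members described, 17 had a log2 ratio of phyB over WT above 0 and 11 below 0, where 49% of all 19296 genes were above 0. The median was 0.16, against -0.01 over all genes. Of the 3045 described gene models within the coding lengths of the members, 1622 were above 0 and 1423 below 0, with a median of 0.03. Across classes of level the median of all genes ranged from -0.05 to 0.25. It was 0.06 in the class with 8 members and 0.12 in the class with 5 members. Whether the family median exceeds that of genes of like level and length was not tested. At least 2-fold higher in phyB were 2 members, XTH7 and XTH26, where 3.2% of all genes were, and at least 2-fold lower was 1 member, XTH6, where 2.18% of all genes were. XTH26, at 1.61 RPKM in phyB and 0.441 RPKM in WT, is the only member that reached a mean of 1 RPKM through 1 genotype alone, the one in which it was higher, so its place in this count was set in part by the filter. All genes past 2-fold were 617 higher and 421 lower over the whole table, or 450 higher and 498 lower with the trend of ratios on coding length removed. In either direction these are 3 of 28 members, where 5.38% of all genes passed, and a count of this size does not set the family apart from other genes. For XTH6 and XTH7 the whole counting interval lay beyond 2-fold, as it did for 2.28% of all genes. At least 1.5-fold higher were 5 members, namely XTH5, XTH7, XTH13, XTH15 and XTH26, where 9.74% of all genes were. At least 1.5-fold lower were XTH6, XTH21 and XTH22, where 7.27% of all genes were.

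The counting interval lay above equal levels for 13 members and below for 10, against 29.8% of all genes above and 32% below. It therefore left out equal levels for 23 of 28 members and 61.9% of all genes. Intervals narrow with the number of reads, and the median member was at a higher level than the median gene. Set beside genes of like level, 5 of the 28 members lay outside the range from the 5 to the 95 percentile of the ratio. They were XTH6, XTH7, XTH15, XTH22 and XTH26, the last with the same reserve about the filter. By construction, 5% of genes of like level lie beyond each end of that range. Whether the members exceed that share was not tested.

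**Figure D2:**
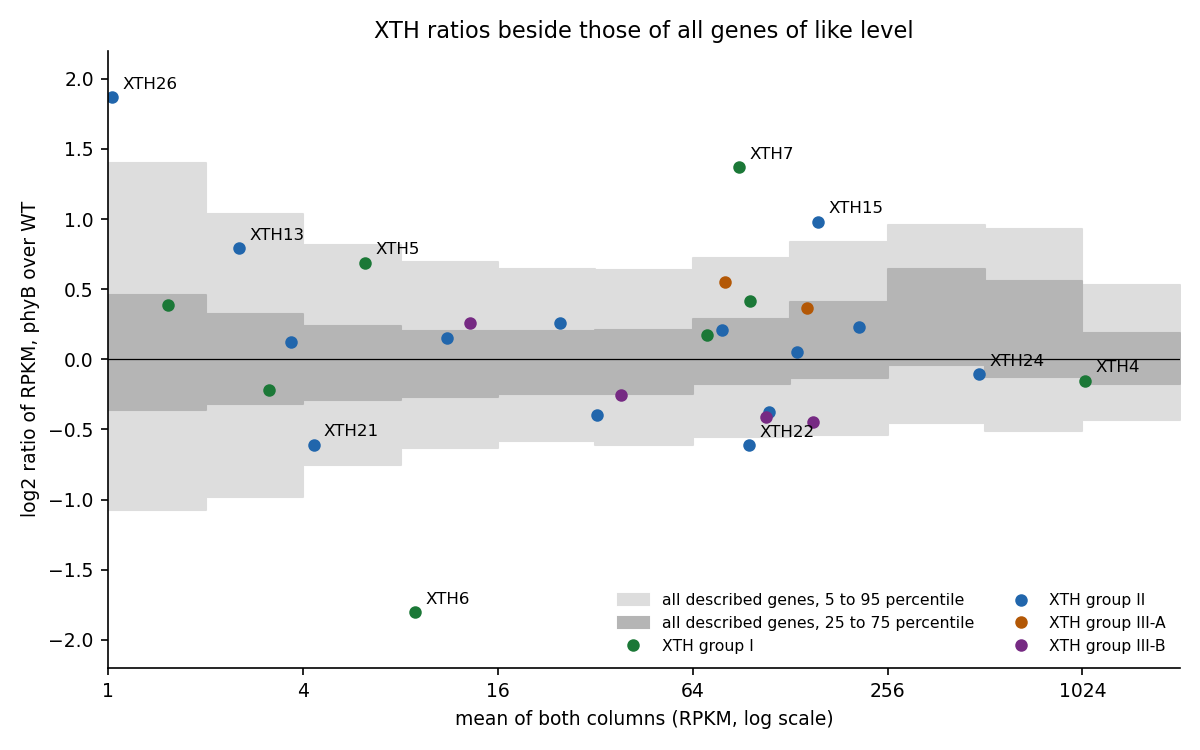
Log2 ratio of phyB over WT against the mean of both columns in RPKM on a log axis, 1 point per XTH gene described. Grey bands are the 5 to 95 and the 25 to 75 percentiles of all described genes in classes of level. XTH26, XTH7 and XTH15 lie above the light band and XTH6 and XTH22 below it.

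In group I the largest ratios were those of XTH7, higher in phyB, and XTH6, lower in phyB, which are each other's closest copy. XTH7 (AT4G37800, chr4:17775370-17777445, minus strand) had 3763 reads in phyB and 1470 reads in WT. Its level was 129 RPKM in phyB and 49.7 RPKM in WT (log2 ratio 1.37, interval 1.28 to 1.46). XTH6 (AT5G65730, chr5:26298728-26300529, plus strand) had 115 reads in phyB and 405 reads in WT. It stood at 3.94 RPKM in phyB and 13.7 RPKM in WT (log2 ratio -1.80, interval -2.11 to -1.50). XTH7 was thus 2.58-fold higher and XTH6 3.49-fold lower in phyB, with 76.5% identity between them over the 748 aligned bases of the coding sequence, and both carry the CT form of the catalytic-site codons printed above.

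The other members of group I differed less. XTH9, known with XTH4 from stems, was at 109.6 RPKM in phyB and 82.1 RPKM in WT (log2 ratio 0.42, interval 0.34 to 0.49). XTH5 was at 7.68 RPKM in phyB and 4.77 RPKM in WT (0.69, interval 0.38 to 1.00). XTH8 was at 75.2 RPKM in phyB and 66.7 RPKM in WT, a ratio of 0.17. These 3 were higher in phyB beyond counting error but below 2-fold. XTH4 was lower in phyB by a ratio of -0.15 (interval -0.17 to -0.13), the narrowest interval of the family, since it rests on 29344 reads in phyB and 32909 reads in WT. XTH10 at -0.22 and XTH11 at 0.39 had intervals that include equal levels. They rest on 87 reads in phyB and 102 in WT for XTH10, and on 48 reads in phyB and 37 in WT for XTH11.

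Group II holds several genes known for shade or hormone responses. XTH15 (AT4G14130, chr4:8137020-8138392, minus strand), also called XTR7 and widely used as a shade-response gene, had 5988 reads in phyB and 3063 reads in WT. It was at 207 RPKM in phyB and 105 RPKM in WT, a log2 ratio of 0.98 (interval 0.92 to 1.04), or 1.97-fold, just under the 2-fold line. With 102 RPKM more in phyB it had the largest gain in level of the family. XTH15 overlaps AT4G14120 on the opposite strand, which had 33 reads in phyB and 27 reads in WT. XTH16, its closest copy at 82.9% identity, went the other way, with 95.8 RPKM in phyB and 124 RPKM in WT (-0.37, interval -0.45 to -0.30).

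XTH22 (AT5G57560), the touch gene TCH4 that also responds to brassinosteroid and auxin, had 2145 reads in phyB and 3314 reads in WT. It was at 75.6 RPKM in phyB and 116 RPKM in WT (log2 ratio -0.61, interval -0.69 to -0.53). XTH23, or XTR6, its closest copy at 80.9% identity, was at 27.9 RPKM in phyB and 36.7 RPKM in WT, a ratio of -0.39. Both were lower in phyB. The other 3 touch genes listed encode calmodulin or calmodulin-like proteins. Their ratios were below 0, as were those of 9843 of all 19296 genes, with CAM2 at -0.13, TCH2 at -0.35 and TCH3 at -0.24. All 3 lay within the 5 to 95 percentiles of the ratio of genes at like level. Each of these 3 overlaps a gene on the opposite strand. Their part in the XTH22 value was not tested.

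XTH17 to XTH20, known for expression in roots, were close to level. Their summed RPKM was 459 in phyB and 408 in WT. XTH17 had a ratio of 0.23 (interval 0.18 to 0.28), XTH19 of 0.21 (0.12 to 0.29), XTH20 of 0.15 (-0.08 to 0.38) and XTH18 of 0.05 (-0.01 to 0.12). All 4 ratios were above 0, but only those of XTH17 and XTH19 beyond counting error, and the ratio of XTH18 turned to -0.005 with the trend of ratios on coding length removed. Reads can also be shared among these genes. XTH17 and XTH18 are the only pair of members above 90% identity, at 92.2% over 849 bases, and the counting of reads with several matches was not given in the sources used here.

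XTH17 on chromosome 1 and XTH18 on chromosome 4 also share the sequence just before their annotated transcript starts. Within the 250 upstream bases the identical stretch is 73 bases long and reaches the annotated start of both genes. The comparison stopped there, so whether the identity runs on into the transcripts was not examined. Among the other pairs of the 528 formed by the 33 members the longest identical stretch in the 250 upstream bases was 14, and the median over all pairs was 9. Capitals mark a CATGTG, the reverse complement of CACATG, a hexamer known as the PBE-box that phytochrome-interacting factors bind.
XTH17, chr1:24256981-24257053, plus strand: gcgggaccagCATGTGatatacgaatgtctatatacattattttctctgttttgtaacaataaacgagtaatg
XTH18, chr4:14827212-14827284, minus strand: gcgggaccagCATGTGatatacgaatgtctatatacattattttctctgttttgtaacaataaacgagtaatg
In level the genes were at 225 RPKM for XTH17 and 137 RPKM for XTH18 in phyB, and at 192 RPKM for XTH17 and 132 RPKM for XTH18 in WT.

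XTH26, known from root hairs, was the least abundant of the members described. It had 47 reads in phyB and 13 reads in WT, or 1.61 RPKM in phyB and 0.441 RPKM in WT. Its log2 ratio was 1.87, with an interval that ran from 0.96 to 2.88 and so reached below 2-fold, and it is described only because of its level in phyB. The 6 root-hair markers had a median ratio of -0.33, with EXPA7, the only one above 0, at 0.30. XTH14, likewise known from roots and root hairs, was at 27.1 RPKM in phyB and 22.6 RPKM in WT, a ratio of 0.26 (interval 0.11 to 0.41).

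XTH21, a gene known for root growth, lies next to PHYB. XTH21 spans chr2:8144881-8146477 on the plus strand, and 419 bases separate it from the end of PHYB at position 8144461, also on the plus strand. It had 104 reads in phyB and 160 reads in WT, or 3.41 RPKM in phyB and 5.20 RPKM in WT (log2 ratio -0.61, interval -0.98 to -0.24). It was lower in phyB, as PHYB was. The lesion of the mutant was not given in the sources used here, and its part in the XTH21 value was not tested.

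Of the last members of group II, XTH12 and XTH13 were low in level and XTH24 was high. XTH13 was at 3.21 RPKM in phyB and 1.85 RPKM in WT (0.79, interval 0.29 to 1.31), on 91 reads in phyB and 53 reads in WT. XTH12, its closest copy at 89.4% identity, was at 3.83 RPKM in phyB and 3.51 RPKM in WT (0.12, interval -0.28 to 0.53), and reads of these copies can be shared. XTH24, at 474 RPKM in phyB and 510 RPKM in WT, was lower in phyB by a ratio of -0.11 (interval -0.14 to -0.07).

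Both members of group III-A, the hydrolase type, were higher in phyB beyond counting error, as 29.8% of all genes were. XTH31 was at 163 RPKM in phyB and 126 RPKM in WT (0.37, interval 0.31 to 0.43). XTH32 was at 95.6 RPKM in phyB and 65.3 RPKM in WT (0.55, interval 0.47 to 0.63). Their summed RPKM was 258 in phyB and 191 in WT, a log2 ratio of the sums of 0.43.

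In group III-B, 3 of the 4 members described were lower in phyB beyond counting error, as 32% of all genes were. XTH30, known for a role in salt tolerance, was at 127 RPKM in phyB and 174 RPKM in WT (-0.45, interval -0.50 to -0.39). XTH27, known from developing vessels of leaves, was at 92.5 RPKM in phyB and 123 RPKM in WT (-0.41, interval -0.48 to -0.35). XTH28, known from stamen filaments, was at 35.2 RPKM in phyB and 41.9 RPKM in WT (-0.25, interval -0.37 to -0.14). XTH33, whose protein is anchored to the cell membrane, was the exception, at 14.3 RPKM in phyB and 11.9 RPKM in WT (0.26, interval 0.06 to 0.46). The sum over group III-B was 269 RPKM in phyB and 351 RPKM in WT, a log2 ratio of the sums of -0.38. None of these 6 members of group III differed 2-fold. All 6 lay within the 5 to 95 percentiles of the ratio of genes at like level, and XTH31 within the 25 to 75 percentiles, so the counts describe these columns and set neither group apart.

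**Figure D3:**
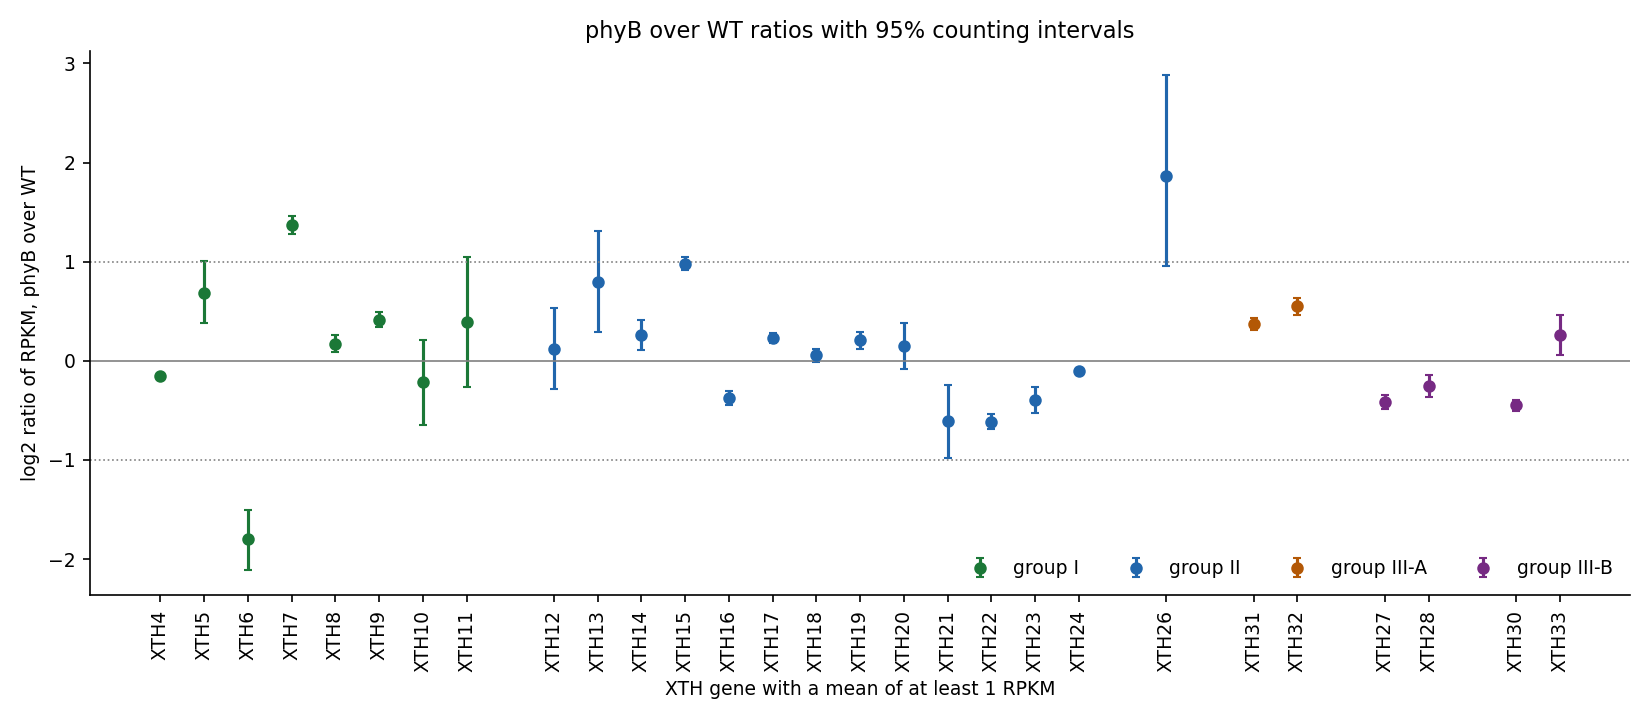
Log2 ratio of RPKM, phyB over WT, for the 28 XTH genes whose mean reached 1 RPKM, coloured by sequence group. Bars are exact 95% counting intervals, which hold no variation between seedlings, and dotted lines mark 2-fold. XTH6 lies below the lower line, XTH7 and XTH26 above the upper one, and XTH15 on it, while XTH31 and XTH32 are above 0 and XTH27, XTH28 and XTH30 below.

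Members closest in coding sequence were compared in pairs. In 10 pairs each member was the other's closest copy, and in 8 of them both members reached 1 RPKM. In 5 of these 8 pairs both ratios had the same sign, and in 3 they had opposite signs. Since 49% of all genes were above 0, these counts do not set the pairs apart from other pairs of genes. XTH7 minus XTH6 differed by 3.17 on the log2 scale (95% counting interval of the difference 2.86 to 3.50), XTH15 minus XTH16 by 1.35 (1.26 to 1.45) and XTH5 minus XTH4 by 0.84 (0.53 to 1.15). The smallest difference was that of XTH28 minus XTH27, at 0.16 (0.03 to 0.29). No interval of the 8 differences included 0, but at these read numbers the intervals of most single genes leave out equal levels as well, so this too is a description.

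**Figure D4:**
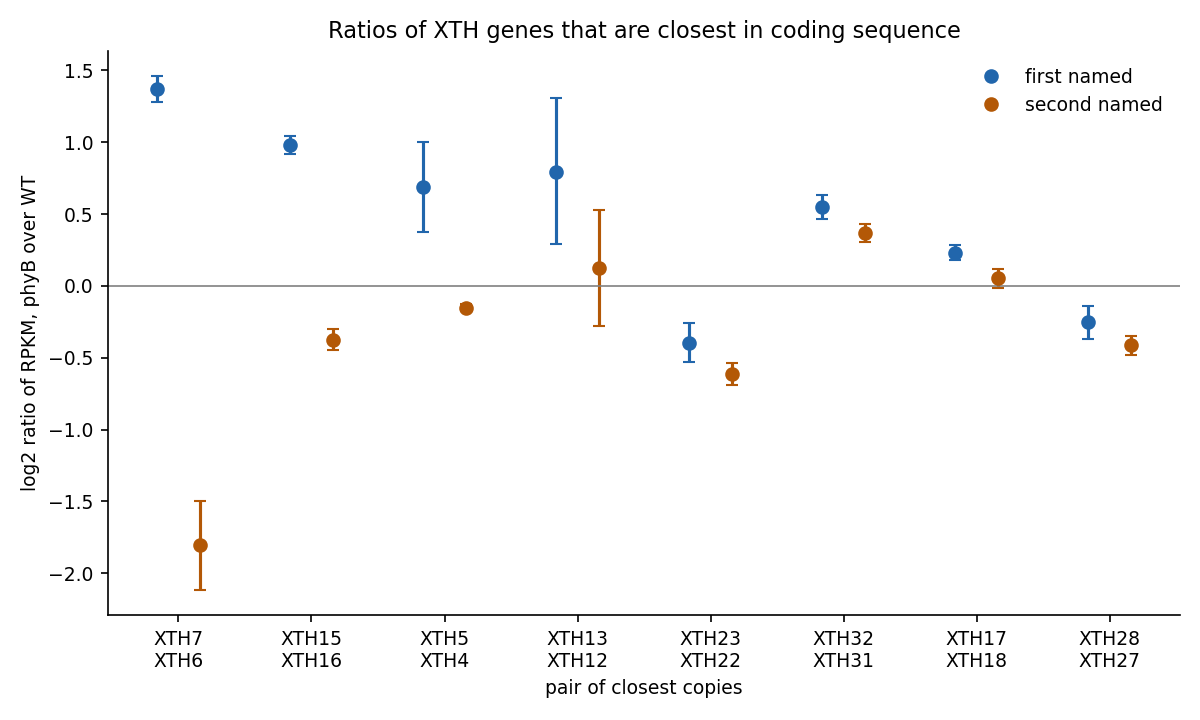
Log2 ratio of RPKM, phyB over WT, for 8 pairs of XTH genes that are each other's closest copy in coding sequence, the first named in blue and the second in orange, with exact 95% counting intervals as bars. XTH7 and XTH6, at 1.37 and -1.80, are farthest apart, and the pairs of XTH28 and XTH27, XTH17 and XTH18, and XTH32 and XTH31 are close together.

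Several members lie side by side on the chromosomes, and some neighbours were close in level while others were far apart. On chromosome 5, XTH12, XTH13, XTH25 and XTH22 follow each other on the minus strand between positions 23300321 and 23308680, with the protein-coding gene AT5G57535 between XTH12 and XTH13. XTH12 was 1.19-fold above XTH13 in phyB (interval 0.895 to 1.59, which includes equal levels) and 1.90-fold in WT (1.35 to 2.70). XTH22 at 75.6 RPKM in phyB and 116 RPKM in WT stands 565 bases from XTH25, which had 2 reads in phyB and 1 read in WT. On chromosome 4, XTH24 was 3.45-fold above its neighbour XTH18 in phyB (interval 3.33 to 3.58) and 3.86-fold in WT (3.72 to 4.00), and XTH18 was 1.62-fold above XTH19 in phyB and 1.80-fold in WT. XTH23 and XTH14, separated by 363 bases on chromosome 4, were nearly equal in phyB, at 27.9 and 27.1 RPKM, while XTH23 was the higher in WT, at 36.7 against 22.6 RPKM.

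**Figure D5:**
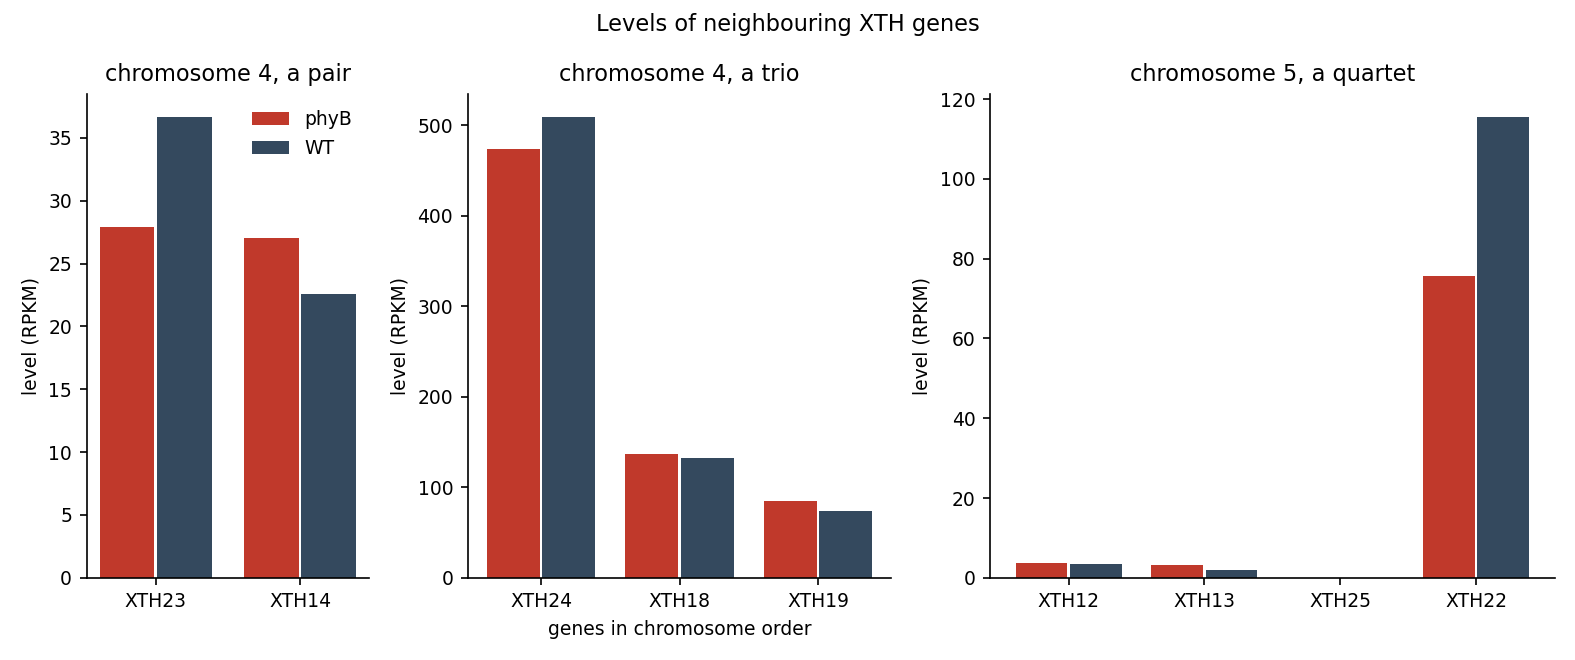
Level in RPKM, on linear axes from 0, of XTH genes that are neighbours on chromosomes 4 and 5, in chromosome order, with phyB in red and WT in dark blue. In the right panel XTH22 reaches 116 RPKM in WT while XTH25 next to it is not visible at 2 reads in phyB and 1 read in WT.

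The regulatory sequence before XTH7, XTH6 and XTH26, the members at least 2-fold apart, and XTH15, with the largest gain in RPKM, is given for reference, as the 250 bases before the annotated transcript start in TAIR10.1. Capitals mark matches on either strand to CACGTG, the G-box of phytochrome-interacting and related factors, to CACATG, to TGTCTC, an auxin response element, or to ACGT, a core that the G-box contains.
XTH7, chr4:17777446-17777695, minus strand: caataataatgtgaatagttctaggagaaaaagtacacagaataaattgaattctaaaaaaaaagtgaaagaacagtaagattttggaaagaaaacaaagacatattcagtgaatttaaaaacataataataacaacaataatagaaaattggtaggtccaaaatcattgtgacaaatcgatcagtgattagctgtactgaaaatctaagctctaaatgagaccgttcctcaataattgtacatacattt
XTH6, chr5:26298478-26298727, plus strand: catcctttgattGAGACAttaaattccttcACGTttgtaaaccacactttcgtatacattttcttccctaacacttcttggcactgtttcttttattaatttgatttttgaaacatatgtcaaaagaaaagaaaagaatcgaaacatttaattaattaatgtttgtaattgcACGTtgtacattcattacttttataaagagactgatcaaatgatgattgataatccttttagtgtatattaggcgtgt
XTH15, chr4:8138393-8138642, minus strand: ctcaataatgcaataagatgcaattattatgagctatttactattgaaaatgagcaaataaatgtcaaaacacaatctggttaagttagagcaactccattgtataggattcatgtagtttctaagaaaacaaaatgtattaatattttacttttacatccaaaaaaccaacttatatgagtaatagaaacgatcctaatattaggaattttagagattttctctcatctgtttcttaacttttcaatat
XTH26, chr4:14244040-14244289, plus strand: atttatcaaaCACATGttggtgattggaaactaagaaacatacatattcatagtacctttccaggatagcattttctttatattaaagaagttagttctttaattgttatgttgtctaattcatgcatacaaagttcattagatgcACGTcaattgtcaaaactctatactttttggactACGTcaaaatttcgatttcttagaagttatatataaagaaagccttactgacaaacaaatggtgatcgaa
The windows of XTH7 and XTH15 held none of these motifs. That of XTH6 held 1 TGTCTC, read on the opposite strand, and 2 ACGT, and that of XTH26 held 1 CACATG and 2 ACGT. Over the family, CACGTG was in 0 of 33 windows, against 6.49% of the 27443 windows of all nuclear protein-coding genes. CACATG was in 5 of 33, those of XTH17, XTH18, XTH25, XTH26 and XTH33, against 11.1% of all. TGTCTC was in 2 of 33 against 10.9%, and ACGT in 10 of 33 against 44.1%. A match in such a window is a description of its letters, and sequence farther upstream was not examined.

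No gene listed for building or trimming xyloglucan reached a 2-fold difference. Of 16 genes of xyloglucan synthesis, 15 reached 1 RPKM, with 9 ratios above 0, 6 below 0 and a median of 0.03. XXT2, a xylosyltransferase, was the most abundant at 62.0 RPKM in phyB and 58.6 RPKM in WT (0.08). Among the 5 genes that trim xyloglucan in the wall the median was 0.04, and the most abundant, XYL1, an alpha-xylosidase, was at 65.0 RPKM in phyB and 58.1 RPKM in WT (0.16). Their summed RPKM was 313 for synthesis in both genotypes, and 155 in phyB and 158 in WT for trimming. Whether the spread of the XTH ratios exceeds that of these lists was not tested.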

How the data were processed

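Poly(A) RNA of whole seedlings was sequenced, per the labels' protocols. Samples were grouped by genotype, and each genotype has 1 read column and 1 RPKM column, per the file headers. Whether a column pools both samples was not given in the sources used here. Each column therefore stands as the authors' value and has neither SD nor n. The deposited reads are taken as estimated counts: the authors wrote 0.5 where a model had 0 reads, and these entries, 4100 in phyB and 4164 in WT, were set back to 0. The deposited RPKM values equal reads per column total and per a length that was a multiple of 3 for 99.99% of models, so it is called coding length, and the members spanned 810 to 1074 nt. The submitters' processing notes name TAIR10. Aligner, counter, strand use and the handling of reads with several matches were not given in the sources used here.

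The difference between genotypes is the log2 ratio of RPKM, phyB over WT, without a pseudocount, for genes whose mean reaches 1 RPKM. The floor is 3 reads, and no ratio is given where both columns are at or below it. Intervals are exact conditional 95% intervals (Clopper-Pearson, scipy 1.17.1). There were no molecular identifiers to separate PCR copies, so these intervals and floors hold counting error alone. The interval step was tested on simulated counts that held counting error alone. That checks the calculation and cannot show how far seedlings or libraries vary. Positions, coding sequences and upstream sequences were read from the RefSeq genome and annotation of TAIR10.1, the coding length of 32 of the 33 members equalled that of the files, and the position of a member is that of its gene there. Closest copies came from BLAST 2.17.0 over all coding sequences. Protein sequences were not used here. The members and lists were chosen with earlier results of these data known. The rule for named genes was all members, and from each pathway list the genes at least 2-fold apart with a mean of at least 5 RPKM and the gene of highest mean. The touch genes and the marker genes were named beyond it, after their values were seen. Alternatives were other scalings (TMM, RLE and upper-quartile factors of edgeR 4.0.16, and totals without organelle genes), pseudocounts, removal of the coding-length trend (lowess, span 0.3), filters and fold thresholds.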

Additional observations from a re-analysis of the deposited data

How the results depend on the processing

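No member at 2-fold or more changed sign under the scaling, pseudocount and length alternatives, and the scalings shift all ratios by 1 constant of at most 0.05. The ratio left its counting interval for 3 of 28 members with the coding-length trend removed, 2 with upper-quartile factors and 1 with a pseudocount of 1 RPKM, where XTH26 was at 0.86. Upper-quartile factors moved XTH15 to 1.03 and so to 3 members at least 2-fold higher. Against 2 members higher and 1 lower, there were 1 higher with a pseudocount of 1 RPKM, where a mean of 5 RPKM was required (XTH26 was not described there) and with the interval wholly beyond 2-fold, 5 higher and 3 lower at 1.5-fold, and 2 lower, with XTH2, without a filter. The share of all genes at least 2-fold higher and lower was 1.94% and 1.28% with a pseudocount of 1 RPKM, 5.70% and 3.84% without a filter, 2.15% and 1.32% with a mean of 5 RPKM required, and 1.26% and 1.01% with the interval beyond 2-fold, and at 1.5-fold it was 9.74% and 7.27%. The family median stayed between 0.11 and 0.21. Without XTH4 the summed RPKM was 2235 in phyB and 2097 in WT. No paired analysis was possible because the single column of values per genotype has no replicate number, and leaving out a replicate was not possible for the same reason.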
